A study of Mus musculus with 8 samples.

Results

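The leukotriene and prostaglandin synthesis genes are 10 genes whose enzymes turn arachidonic acid into lipid mediators: Alox5ap, Alox5, Lta4h, Ltc4s, Ptgs1, Ptgs2, Ptges, Hpgds, Ptgis and Tbxas1. They were chosen by name, with earlier results of these data known, so their counts and medians beside all genes are descriptions. Each was read through the probe set annotated to its symbol alone that had the highest mean over all arrays. Of the 10, 9 had such a probe set, out of 18193 genes in all, and Ptgs1, which encodes the constitutive cyclooxygenase, was not analysed here. A filter on dim probe sets left 8 of the 9 among the 11189 genes tested, and Ptgs2 fell below it.

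RNA of spleen cells was hybridised to Affymetrix Mouse 430 2.0 arrays, 1 array for each of 8 samples from male C57/BL6 mice. TG mice carried an HMGA1a transgene, which encodes a chromatin protein that binds AT-rich DNA, and WT mice were control littermates labelled wild type. The groups were WT at 2 months, TG at 2 months, WT at 12 months and TG at 12 months, each with 2 samples labelled as biologic replicates 1 and 2. Whether a sample is 1 mouse or a pool is not given in the sources used here. The TG mice all go on to lymphoid tumours, by the design text of the series, which puts 2 months before their onset and 12 months after it. The promoter that drives the transgene and the number of founder lines are not given in the sources used here, so the cells that express it cannot be named.

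Arachidonic acid, released from membranes by phospholipases, feeds both pathways. In the first, 5-lipoxygenase (Alox5), helped by its membrane partner FLAP (Alox5ap), makes leukotriene A4, which Lta4h hydrolyses to the neutrophil attractant leukotriene B4 and Ltc4s joins to glutathione to make leukotriene C4. In the second, the cyclooxygenases (Ptgs1 and Ptgs2) make prostaglandin H2, which terminal synthases turn into prostaglandin E2 (Ptges), prostaglandin D2 (Hpgds), prostacyclin (Ptgis) or thromboxane (Tbxas1). Leukotriene enzymes are known from myeloid cells, prostacyclin synthase from vessel walls, and thromboxane synthase from platelets and macrophages.

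Array medians lay between 44.9 and 49.5 signal units. In the spleen cells, 11 of 12 B cell markers and 11 of 13 T cell markers had a probe set at or above the filter. The summed signal of the B cell markers ran from 14704 to 29671 over the 8 arrays, and that of the T cell markers from 4163 to 9849. The replicate 1 WT array of 2 months stood apart in exocrine pancreas markers, whose summed signal was 15140 there and 489 to 843 on the other 7 arrays. The 3'/5' signal ratio of the Gapdh controls, which tracks RNA integrity, was lower on each TG than on its WT array of 12 months (0.843 against 1.25 in replicate 1, 1.21 against 1.73 in replicate 2). Each group has 2 samples, and their number limits the precision of every value below.

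The question at 12 months was how the spleens of TG mice with established tumours differ from those of WT littermates. Ptgis had the largest difference among the synthesis genes, with 3.51-fold less signal in TG mice, and Alox5ap, Tbxas1 and Alox5 were also lower on both TG arrays than on both WT arrays. Lta4h and Hpgds were slightly higher, and Ptges and Ltc4s overlapped between the groups. None of the 8 tested genes passed the test (limma, Benjamini-Hochberg over 11189 genes, threshold 0.05), and 0% of all genes did. At an unadjusted p under 0.05, 3 of the 8 were lower (Ptgis, Alox5ap and Tbxas1), where 5.14% of all genes were, and 0 of the 8 were higher, where 2.59% were. Of the 8 genes, 5 had a negative difference, against 54.8% of all genes. Their median log2 difference was -0.55, beside -0.03 over all genes. With the replicate number as a block, 5 of all genes passed (0.0447%), none of them a synthesis gene.

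**Figure D1:**
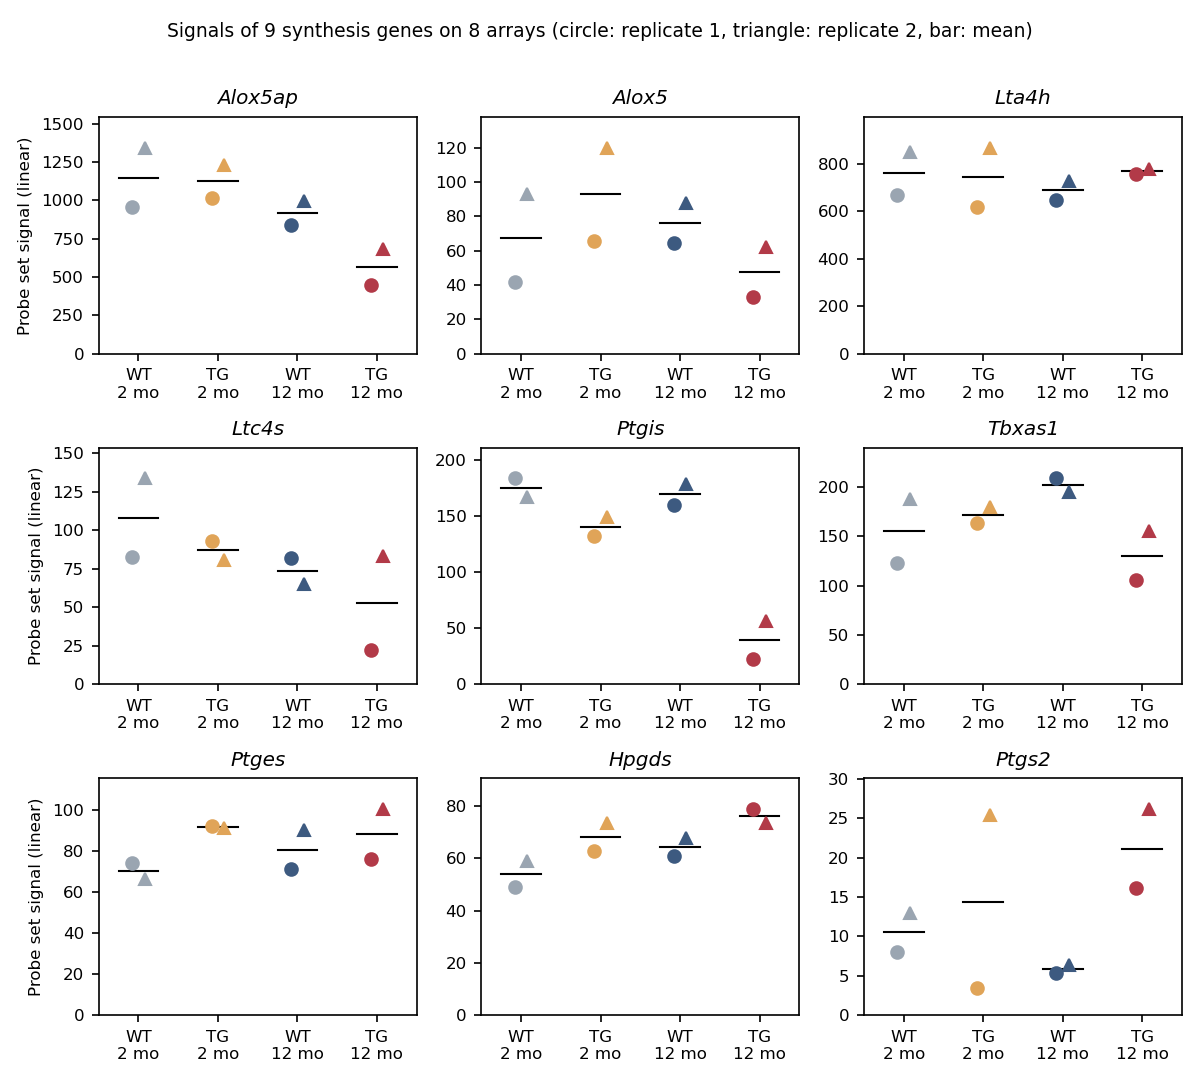
Probe set signal on a linear scale (vertical axes, from 0, each panel with its own range) for 9 synthesis genes in the 4 groups. Circles are replicate 1, triangles replicate 2 and bars the mean of 2 samples, and the Ptgis signals of TG mice at 12 months, 22.5 and 56.2, lie below the other 6, which run from 132 to 184.

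Alox5ap encodes FLAP, the protein that presents arachidonic acid to 5-lipoxygenase. In WT mice its signal was 954 and 1344 at 2 months and 839 and 995 at 12 months, replicate 1 first. In TG mice it was 1017 and 1231 at 2 months and 446 and 684 at 12 months. Both TG signals of 12 months lie below every other signal, and replicate 1 lies below replicate 2 in all 4 groups. The means at 12 months were 565 ± 168 in TG and 917 ± 110 in WT mice (SD, n = 2). The log2 difference was -0.71 ± 0.26 (SE, 95% interval -1.31 to -0.11), at -0.89 within replicate 1 and -0.53 within replicate 2 (limma, adjusted p = 0.605). The fit with the replicate number as a block gave an SE of 0.13 and missed the test (limma, adjusted p = 0.0840).

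Alox5 encodes 5-lipoxygenase, which starts leukotriene synthesis. Its signal was 41.7 and 93.3 in WT and 65.6 and 120 in TG mice at 2 months. At 12 months it was 64.4 and 87.8 in WT and 32.8 and 62.2 in TG mice. The groups of 12 months do not overlap, but by a margin of 62.2 against 64.4, and replicate 1 again lay below replicate 2 in every group. The log2 difference at 12 months was -0.56 ± 0.40 (95% interval -1.50 to 0.37, limma adjusted p = 0.797). With the replicate number as a block the SE was 0.21 and the unadjusted p 0.0271 (limma, adjusted p = 0.197).

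Lta4h encodes the hydrolase that makes leukotriene B4. Its signal was 670 and 849 in WT and 619 and 867 in TG mice at 2 months, and 649 and 725 in WT and 758 and 778 in TG mice at 12 months. The TG signals of 12 months are above the WT signals of that age but within the range of the 2-month arrays. The log2 difference was 0.16 ± 0.21 (95% interval -0.33 to 0.65, limma adjusted p = 0.919). A second Lta4h probe set went the other way at 12 months, with 95.4 and 155 in WT and 56.9 and 51.9 in TG mice, so the direction for this gene depends on the probe set.

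Ltc4s encodes leukotriene C4 synthase. Its signal was 82.7 and 134 in WT and 93.3 and 80.7 in TG mice at 2 months, and 82.3 and 65.4 in WT and 22.0 and 83.4 in TG mice at 12 months. A single array, that of the replicate 1 TG sample of 12 months, is low. The difference at 12 months was -1.37 within replicate 1 and 0.29 within replicate 2, and -0.54 ± 0.43 in the fit (95% interval -1.54 to 0.45, limma adjusted p = 0.835). Without the replicate 1 TG array of 12 months the sign turned, to 0.15.

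Promoter sequence of the RefSeq annotation (GRCm38.p6) was used for 8 of the 10 genes, all but Alox5ap and Ptgis. It is shown for 3 of them: Alox5 and Tbxas1, whose TG and WT signals did not overlap at 12 months and were lower in TG mice, and Lta4h, whose brightest probe set was not lower. Each stretch holds the 150 bases before the annotated start, 5′ to 3′ on the gene's strand, at chr6:116461179-116461328 (minus strand) for Alox5, chr6:38918836-38918985 (plus strand) for Tbxas1 and chr10:93453246-93453395 (plus strand) for Lta4h. Capitals mark GAGGAA, a core that ETS-family factors of myeloid cells can bind, or its reverse complement.
Alox5: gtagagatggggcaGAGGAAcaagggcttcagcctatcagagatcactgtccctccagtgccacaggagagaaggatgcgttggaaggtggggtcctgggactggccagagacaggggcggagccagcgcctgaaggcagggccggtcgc
Tbxas1: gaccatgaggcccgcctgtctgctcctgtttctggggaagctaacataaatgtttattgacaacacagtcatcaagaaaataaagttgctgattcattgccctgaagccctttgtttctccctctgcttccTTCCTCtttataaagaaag
Lta4h: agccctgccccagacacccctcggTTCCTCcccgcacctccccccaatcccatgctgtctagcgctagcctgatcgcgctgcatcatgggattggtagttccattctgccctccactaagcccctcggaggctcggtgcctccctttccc

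GAGGAA was found on either strand in the 250 bases before the start of 7 of the 8 genes (all but Ltc4s) and in 23.25% of all 32851 promoters. It is 1 of 10 letter strings searched on both strands and is shown for its count, as a description with no test. The longer GAGGAAG and GAGGAAGT, which contain it, were in 3 and 2 of the 8 (10.61% and 2.44% of all promoters). GGGCGG was in 3 (32.74%), AAAAA in 2 (39.75%), TATAAA in 1, Tbxas1 (12.37%), and CCAAT in 1, Lta4h (33.85%), and the AT-rich AAATTT and AATATT (6.97% and 6.17%) and CACGTG (6.02%) were in 0. A and T made up 56.4% of the 250 bases for Tbxas1, 47.2% for Alox5 and 41.2% for Lta4h, beside a median of 47.6% over all promoters. Of the promoters not shown, Hpgds had 54.8%, Ptgs1 52.0%, Ltc4s 42.4%, Ptges 40.4% and Ptgs2 38.4%. A link of this share with the differences was not tested. All 3 stretches shown hold GAGGAA. ETS-family sites without this string were not searched, so Ltc4s is not shown to lack one.

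Ptgis encodes prostacyclin synthase, a cytochrome P450 enzyme. Its signal was 184 and 167 in WT and 132 and 149 in TG mice at 2 months. At 12 months it was 160 and 179 in WT and 22.5 and 56.2 in TG mice. Both TG signals of 12 months are far below the other 6, and those of 2 months are also below both WT signals of their age. Against the WT array of the same replicate at 12 months, the TG signal was 14.0% in replicate 1 and 31.4% in replicate 2, after 72.0% and 89.1% at 2 months. The log2 difference at 12 months was -1.81 ± 0.30 (95% interval -2.497 to -1.13), at -2.20 within replicate 1 and -1.43 within replicate 2 (limma, adjusted p = 0.468), and ranked 6th of 11189 genes by p. The fit with the replicate number as a block gave an SE of 0.25 and missed the test (limma, adjusted p = 0.0618). The log2 difference ranged from -2.22 with a pseudocount of 1 to -1.19 with a pseudocount of 64, since the TG signals are low. Without the replicate 2 TG sample of 12 months it was -2.27 and passed (adjusted p = 0.0435), and without the replicate 1 TG sample it was -1.36 (adjusted p = 0.312). Each of these fits leaves 1 TG sample of 12 months, which is assumed to vary like the other groups.

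Tbxas1 encodes thromboxane synthase, like prostacyclin synthase a P450 enzyme that acts on prostaglandin H2. Its signal was 122 and 188 in WT and 163 and 180 in TG mice at 2 months, and 208 and 195 in WT and 106 and 155 in TG mice at 12 months. The TG signals of 12 months are below the WT signals of that age and of the TG mice of 2 months, while the replicate 1 WT array of 2 months is also low. The log2 difference at 12 months was -0.59 ± 0.26, at -0.88 within replicate 1 and -0.30 within replicate 2 (limma, adjusted p = 0.645). The fit with the replicate number as a block gave an SE of 0.19 (limma, adjusted p = 0.161).

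Ptges encodes the inducible microsomal prostaglandin E synthase. Its signal was 74.0 and 66.5 in WT and 91.9 and 90.9 in TG mice at 2 months, and 70.9 and 90.3 in WT and 76.0 and 100.3 in TG mice at 12 months. The groups overlap at 12 months, where the log2 difference was 0.11 ± 0.22 (95% interval -0.41 to 0.62). At 2 months they do not, with a difference of 0.32 ± 0.22 (limma adjusted p = 1.00). Its other 2 probe sets were below the filter, and 1 of them had 47.9 and 43.9 in WT and 16.4 and 17.8 in TG mice at 12 months, opposite to the brighter one.

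Hpgds encodes the hematopoietic prostaglandin D synthase. Its signal was 48.9 and 58.9 in WT and 63.0 and 73.5 in TG mice at 2 months, and 60.8 and 67.9 in WT and 78.9 and 73.6 in TG mice at 12 months. TG signals exceeded WT signals at both ages, by 0.27 ± 0.21 at 2 months and 0.20 ± 0.21 at 12 months on the log2 scale. Neither difference passed the test (limma, adjusted p = 1.00 and 0.895), and both 95% intervals hold 0 (-0.22 to 0.76 and -0.29 to 0.69).

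Ptgs2 encodes the inducible cyclooxygenase COX-2, and its signal was near the floor of the arrays. The brighter of its 2 probe sets had 8.06 and 13.0 in WT and 3.44 and 25.3 in TG mice at 2 months, and 5.35 and 6.39 in WT and 16.1 and 26.1 in TG mice at 12 months. On 5 of 8 arrays it lay under 16, the constant added before taking logarithms. Both TG signals of 12 months are above both WT signals, as they are for the other probe set, at 32.0 and 17.9 against 6.95 and 8.57. In a fit of all 18193 genes without the filter the log2 difference was 0.75 ± 0.36 (95% interval -0.07 to 1.57, limma adjusted p = 0.757). At this level a signal cannot be separated from array background.

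**Figure D2:**
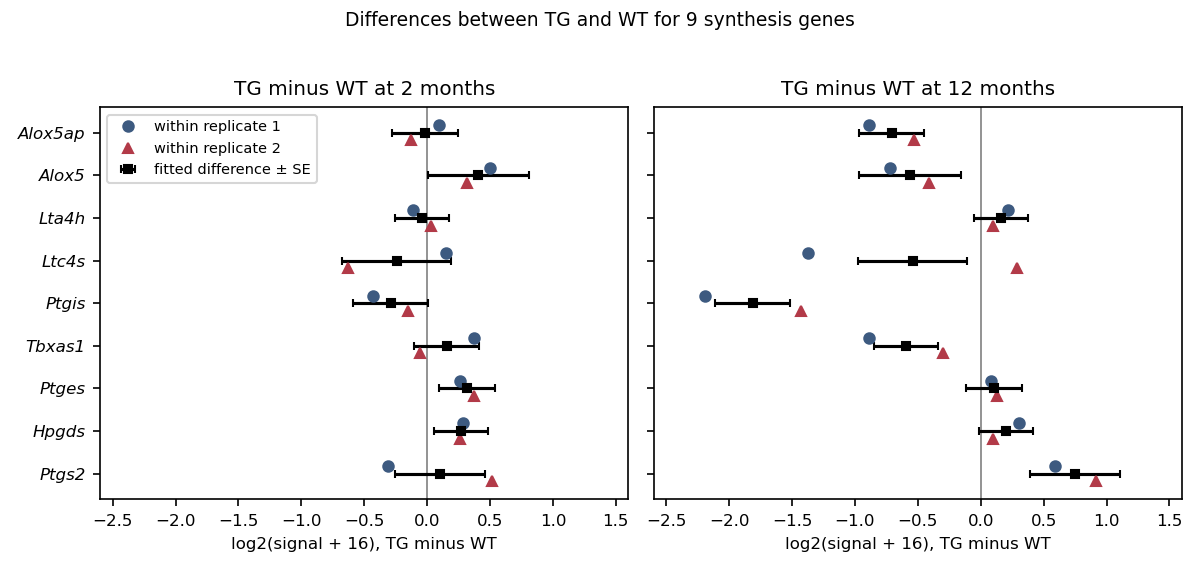
Difference between TG and WT mice in log2(signal + 16) (horizontal axes) for 9 synthesis genes at 2 months (left) and 12 months (right). Squares with bars are the fitted difference ± SE, circles and triangles the difference within replicate 1 and replicate 2, and at 12 months Ptgis, Alox5ap, Tbxas1 and Alox5 lie below 0 within both replicates.

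Within both replicates, 4 of the 8 tested genes were lower in TG mice at 12 months (35.5% of all genes) and 3 were higher (26.9%). Without overlap between the groups, 4 were lower (19.9%) and 2 higher (14.3%). The 4 lower genes are from both pathways: Alox5ap and Alox5 form leukotriene A4, and Ptgis and Tbxas1 are the P450 synthases of prostacyclin and thromboxane. Ptges and Hpgds, the other 2 terminal synthases among the synthesis genes, had log2 differences above 0 at both ages. For Ptges the groups of 12 months overlapped, and a dimmer probe set was lower in TG mice. These contrasts are of signals for each gene, as levels of different probe sets cannot be ranked.

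At 2 months, ahead of tumour onset, the comparison of TG with WT mice found small differences. None of the 8 genes passed (limma, 0% of all genes) and none had an unadjusted p under 0.05, which 0.393% of all genes had. The largest were 0.41 ± 0.40 for Alox5, 0.32 ± 0.22 for Ptges and -0.29 ± 0.30 for Ptgis. Without the replicate 1 WT array of 2 months, which stood apart in pancreas markers, the Alox5 difference was -0.05. The median of the 8 genes was 0.07, beside 0.01 over all genes, and 4 of the 8 were below 0 (47.5% of all genes). The groups did not overlap for Ptges and Hpgds, higher in TG mice (10.1% of all genes), and for Ptgis, lower in TG mice (7.83%).

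The difference between the 2 transgene effects was then tested as an interaction. For Ptgis the effect at 12 months was lower than that at 2 months by -1.52 ± 0.42 (95% interval -2.49 to -0.56), at -1.77 within replicate 1 and -1.28 within replicate 2. It had an unadjusted p of 0.00666 and missed the adjusted test (limma, adjusted p = 1.00). In this fit without a block it was the 1 gene of the 8 with an unadjusted p under 0.05 (1.39% of all genes in that direction). The interaction was -0.97 ± 0.57 for Alox5, -0.75 ± 0.36 for Tbxas1 and -0.69 ± 0.37 for Alox5ap, each negative within both replicates. Each 95% interval of this fit holds 0. With the replicate number as a block, the unadjusted p for these genes was 0.0112, 0.0252 and 0.00482 in that order (limma, adjusted p = 0.598 each). In the same fit it was 0.00254 for Ptgis (limma, adjusted p = 0.598). Without the replicate 1 WT array of 2 months, the interaction in the fit without a block was -0.51 for Alox5 and -0.47 for Tbxas1. With all 8 arrays the interaction for Lta4h was 0.20 ± 0.30. Of the 8 genes, 7 had a negative interaction (56.3% of all genes).

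The comparison of 12 with 2 months shows how the genes stood with age in each genotype. It shares its 12-month arrays with the comparison of genotypes, so it does not add independent values for them. In WT mice none of the 8 genes passed or had an unadjusted p under 0.05 (limma, 0% and 1.53% of all genes). Of the 8 differences 4 were negative (48.6% of all genes). Ptgis differed by -0.05 ± 0.30 and Alox5ap by -0.31 ± 0.26. Tbxas1 and Hpgds were higher at 12 months without overlap (12.7% of all genes), by 0.37 ± 0.26 and 0.20 ± 0.21, and Ltc4s was lower without overlap (10.9%), by -0.44 ± 0.43.

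In TG mice, Alox5ap was lower at 12 than at 2 months by -0.997 ± 0.26 on the log2 scale (95% interval -1.60 to -0.39), from 1124 ± 151 to 565 ± 168 (SD, n = 2), with -1.16 within replicate 1 and -0.83 within replicate 2. It missed the test without a block (limma, adjusted p = 0.699) and passed with the replicate number as a block (adjusted p = 0.0326). The block raised the genes past the test from 1 (0.00894%), which is none of the synthesis genes, to 21 (0.188%), of which Alox5ap is the 1 synthesis gene. With the block and 1 array left out, Alox5ap passed in 2 of 8 fits, those without 1 or the other TG sample of 12 months, and its adjusted p in the other 6 ran from 0.0521 to 0.372. Both passing fits leave 1 sample in the group tested and take its spread from the other groups. Ptgis was lower by -1.57 ± 0.30, from 141 ± 11.7 to 39.3 ± 23.8 (adjusted p = 0.419 without the block). These 2 were the genes with an unadjusted p under 0.05 and a lower signal (3.11% of all genes). Of the 8 differences 6 were negative (56.3%). The groups did not overlap for Alox5ap, Alox5, Ptgis and Tbxas1, lower at 12 months (17.4%), and for Hpgds, higher (10.3%).

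The synthesis genes did not move as 1 set over the arrays. As a description over the 8 arrays, which share group and replicate structure, log2 signals of Alox5ap had a Pearson r of 0.88 with Ptgis, 0.85 with Ltc4s, 0.80 with Alox5 and 0.67 with Tbxas1, and those of Alox5 and Tbxas1 had 0.82. Lta4h had 0.18 with Alox5ap and -0.17 with Ptgis, and Hpgds had -0.70 with Ptgis. Among all genes tested, the most like Ptgis were the endothelial phosphatase gene Ptprb (r = 0.99) and the B cell and follicular complement receptor gene Cr2 (0.98). Those most like Alox5ap were the lectin gene Cd209d (0.99) and the Polycomb gene Phc1 (0.98), and those most like Tbxas1 were the ATP receptor gene P2rx7 (0.98) and the macrophage phagocytic receptor gene Mertk (0.96). For Alox5 they were Nap1l4 and Arhgap23 (0.98 each), for Lta4h Dnajc25 and Pdk3 (0.98 each), for Ltc4s Dennd4b and Dync2li1 (0.97 and 0.96), for Ptges Nme7 and Ccl28 (0.93 each), and for Hpgds Gm5124 and Cd82 (0.98 and 0.97).

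Markers of the cells known to hold these enzymes were read on the same arrays, since in bulk spleen fewer cells of a type and less RNA per cell cannot be told apart. Of the macrophage and monocyte markers, 14 of 17 had lower signals in the TG samples of 12 months, where 54.8% of all genes did. The median log2 difference was -0.52 (-0.83 within replicate 1 and -0.24 within replicate 2). Their summed signal was 26752 to 38583 in TG and 41738 to 43993 in WT mice of 12 months, and 33478 to 42462 over the 4 arrays of 2 months. Alox5ap was at -0.89 and -0.53 and Tbxas1 at -0.88 and -0.30 within the same replicates. Of the dendritic cell markers, 9 of 10 were lower, with a median of -0.51 (-0.44 and -0.56). B cell markers had -0.74 and -0.30 within the replicates, so the macrophage list was not the only one near these genes. For 12 against 2 months in TG mice, the macrophage median was -0.25 (-0.50 within replicate 1, 0.08 within replicate 2). The dendritic median was -0.47 (-0.57 and -0.42). Alox5ap was at -1.16 and -0.83 there, and Tbxas1 at -0.56 and -0.20. In WT mice 2 of the 17 macrophage markers were lower at 12 months (48.6% of all genes), with a median of 0.32. Alox5ap differed by -0.31 and Tbxas1 by 0.37 in that comparison. The part of any of these cells in the result was not tested.

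Of the megakaryocyte and platelet markers, 9 of 11 were lower, with a median of -0.34 (-0.72 in replicate 1, 0.08 in replicate 2) and a summed signal of 4112 to 7217 in TG and 6237 to 6920 in WT mice of 12 months. Of the neutrophil markers, 11 of 14 were higher, with a median of 0.86 (-0.10 and 1.74). Alox5 was at -0.72 and -0.41 and Alox5ap at -0.89 and -0.53 within replicates 1 and 2. Of the mast cell and basophil markers, 3 of the 11 with a probe set reached the filter, 2 of them lower at 12 months. The summed signal of the 11, most of them below the filter, was 603.3 to 603.5 in TG and 748 to 813 in WT mice of 12 months. The mast cell marker Cpa3, the 1 of the 3 that was not lower, had 65.2 and 61.5 in TG and 64.7 and 60.0 in WT mice. The defining IgE receptor chain gene Fcer1a lay between 3.18 and 36.8 on the 8 arrays. Of the eosinophil markers, 3 of 4 were higher, with a median of 0.29 (-0.49 and 1.08). The part of these cells was not tested.

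Ptgis was set beside stroma and endothelium. Of those markers, 11 of 16 were lower at 12 months, and their median was -0.22 (-0.62 in replicate 1, 0.0022 in replicate 2), while their summed signal was 11049 to 12299 in TG and 12350 to 12551 in WT mice. The list is mixed. Igfbp5, which encodes an insulin-like growth factor binding protein, had 81.4 and 121 in TG and 404 and 261 in WT samples of 12 months, a log2 difference of -1.57 ± 0.27, at -2.11 within replicate 1 and -1.02 within replicate 2 (limma, adjusted p = 0.468). Ptgis, at -2.20 and -1.43, had the same adjusted p. Stab2, a scavenger receptor of sinus endothelium, had 460 and 730 in TG and 1133 and 1274 in WT mice, whereas the fibrillar collagen gene Col3a1 had 1681 and 1124 against 1122 and 879. The endothelial cadherin gene Cdh5 had 147 and 227 in TG and 193 and 185 in WT mice. In the same list Kdr had 172 and 277 in TG and 308 and 348 in WT mice. Pecam1 had 322 and 314 in TG and 499 and 395 in WT mice. Tek overlapped, with 60.4 and 95.3 in TG and 133 and 70.3 in WT mice. The part of these cells in the difference of Ptgis was not tested. B cell markers had a median of -0.40 (9 of 11 lower, -0.74 in replicate 1 and -0.30 in replicate 2), and 2 of them passed with the replicate block. T cell markers had 0.69 (9 of 11 higher), with opposite signs in replicate 1 (0.997) and replicate 2 (-0.12), and erythroid markers 0.07 (4 of 7 higher). Exocrine pancreas markers had 0.44 (4 of 5 higher).

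**Figure D3:**
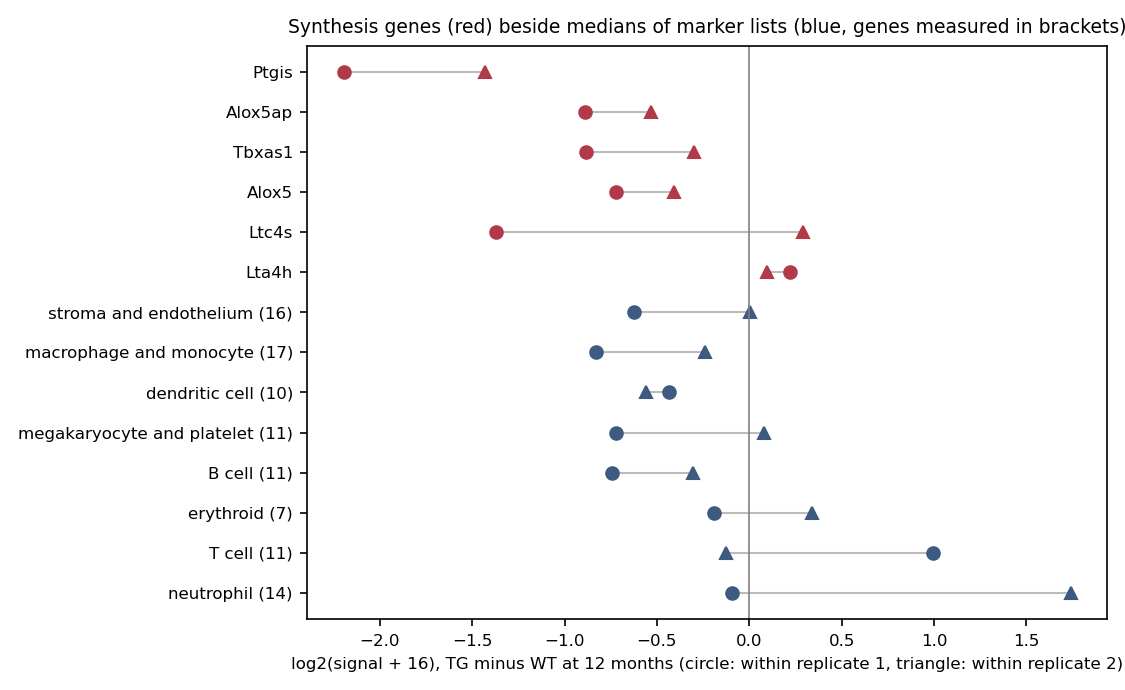
Difference between TG and WT mice of 12 months in log2(signal + 16) (horizontal axis) within replicate 1 (circles) and replicate 2 (triangles), for 6 synthesis genes (red) and as the median of 8 marker lists (blue). Ptgis lies at -2.20 and -1.43, and Alox5ap at -0.89 and -0.53. The macrophage list lies at -0.83 and -0.24, the B cell list at -0.74 and -0.30 and the dendritic cell list at -0.44 and -0.56.

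The rest of eicosanoid metabolism was read from 6 lists of other genes, of which 25 were tested. At 12 months 0 of the 25 passed (limma) and 2 had an unadjusted p under 0.05, near the share over all genes (7.73%). In TG mice 16 were lower and 9 higher, and the median was -0.13. Beside these and the counts of each list below, 54.8% of all genes were lower. The phospholipases that free arachidonic acid had 4 of 7 lower and a median of -0.12. In this list Pla2g4a, the cytosolic enzyme that feeds both pathways, differed by -0.13 ± 0.45. Other lipoxygenases and leukotriene steps had 4 of 5 lower, all 4 without overlap between the groups (19.9% of all genes), and a median of -0.43. They include the platelet-type lipoxygenase gene Alox12, with 75.5 and 159 in TG and 216 and 173 in WT mice (-0.73 ± 0.37, limma adjusted p = 0.699).

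Both genes with an unadjusted p under 0.05 belong to prostaglandin transport and breakdown, where 4 of 5 were lower with a median of -0.46. Ptgr1, which encodes a reductase that inactivates leukotriene B4 and prostaglandin metabolites, was the exception in direction. Its signal was 287 and 823 in TG and 126 and 130 in WT mice of 12 months, after 145 and 219 in TG and 116 and 182 in WT mice of 2 months. Both TG signals of 12 months are above the other 6, and they differ widely from each other. The log2 difference was 1.81 ± 0.45, at 1.09 within replicate 1 and 2.53 within replicate 2 (limma, adjusted p = 0.586). Slco2a1, which encodes a prostaglandin transporter of endothelium, had 375 and 518 in TG and 674 and 671 in WT mice of 12 months (-0.59 ± 0.22, limma adjusted p = 0.605). At 2 months no gene of these lists that was tested had an unadjusted p under 0.05.

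Other prostaglandin synthases had 3 of 4 lower at 12 months and a median of -0.13. Prostanoid receptors had 3 of 4 higher and a median of 0.02, and among them Ptgir, the prostacyclin receptor gene, differed by 0.01 ± 0.25 and Tbxa2r, the thromboxane receptor gene, by 0.03 ± 0.23. The difference in Ptgis and Tbxas1 thus stood beside receptor signals with 95% intervals of -0.56 to 0.57 for Ptgir and -0.51 to 0.57 for Tbxa2r.

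**Figure D4:**
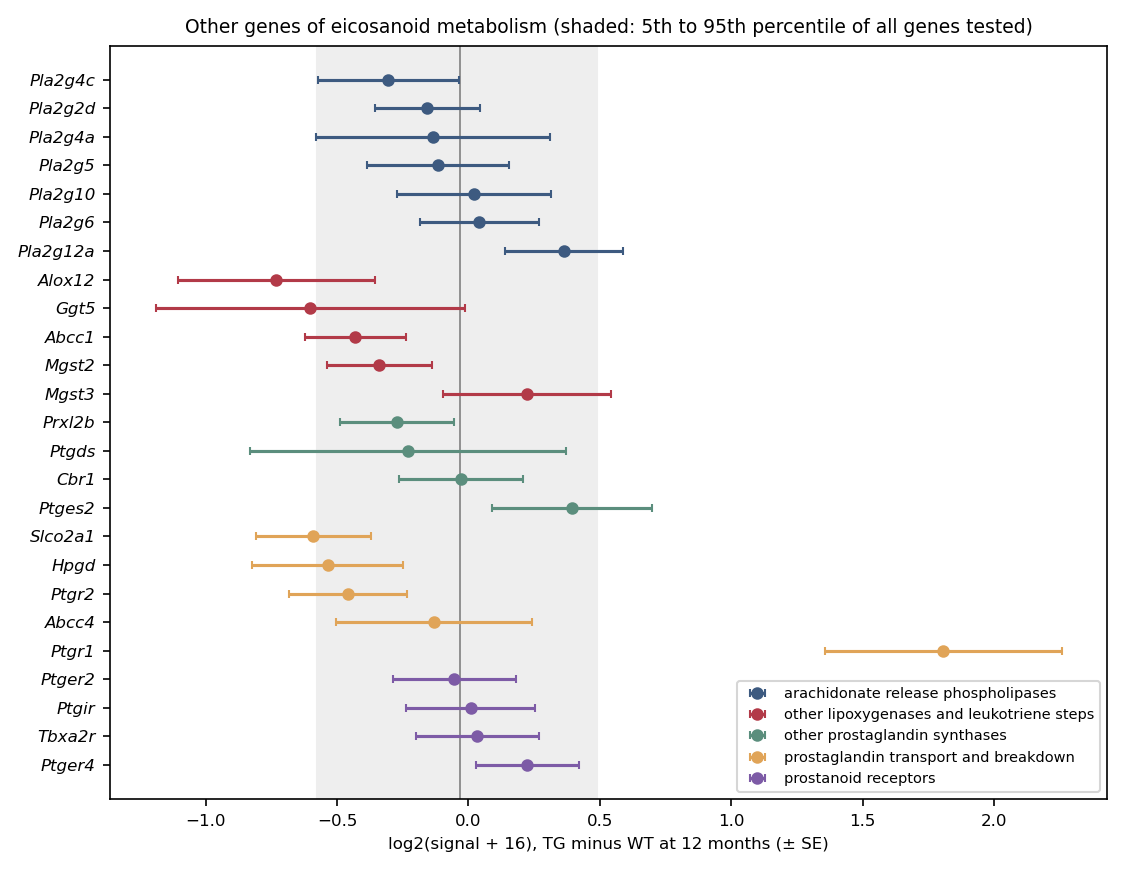
Difference between TG and WT mice of 12 months in log2(signal + 16) ± SE (horizontal axis) for 25 other genes of eicosanoid metabolism, coloured by list. The shaded band runs from the 5th to the 95th percentile of all genes tested and the grey line is their median, and Ptgr1 at 1.81 lies far to the right.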

How the data were processed

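Affymetrix signals of 8 spleen samples in 4 groups of 2 were used. The authors deposited 1 linear intensity for each probe set and array. Per the labels' processing notes the authors used GCOS 1.4 and MAS5, and the mean of each array without its lowest and highest 2% of values was 150.001. Scan batches are not given in the sources used here.

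Of 45101 probe sets, 34945 had 1 gene symbol in the annotation given, updated by gene ID for 34741 of them. Values were taken as log2(signal + 16), and probe sets with a mean under the median of all (mean signal 45.3) were dropped. The probe set with the highest mean stood for each gene, which left 11189. In R 4.3.3, limma 3.58.1 fitted the 4 group means (lmFit, then eBayes with trend), leaving 4 residual degrees of freedom. Tests are 2-sided, with Benjamini-Hochberg adjustment across every gene tested. The fit was tested on simulated data.

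For each of the 6 pairs of groups, the differences between replicates were correlated over genes (r from 0.464 to 0.654), so the number marks pairs, and a fit with it as a block is given where it changes a call. Where nothing says the RNA came from separate preparations, p-values measure only the spread between these samples. All synthesis genes are named. Other pathway genes are named by an unadjusted p under 0.05 or, after their values were seen, as examples, and the 2 genes most like each synthesis gene by Pearson r. Members and lists were chosen with earlier results of these data known. Alternatives changed the pseudocount, normalization, filter, probe set rule, block, variance model and arrays.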

Additional observations from a re-analysis of the deposited data

Results flagged for a closer look

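Tbxas1, the thromboxane synthase gene, had age differences of opposite sign in the 2 genotypes, neither of which passed the test. Both WT signals of 12 months (208 and 195) were above both of 2 months (122 and 188), and both TG signals of 12 months (106 and 155) were below both of 2 months (163 and 180). The age difference was 0.37 ± 0.26 in WT (95% interval -0.22 to 0.96, 0.70 within replicate 1 and 0.05 within replicate 2) and -0.38 ± 0.26 in TG mice (-0.97 to 0.22). The low WT signal of 122 is from the replicate 1 array of 2 months, the one with exocrine pancreas markers summing to 15140. Without that array the WT age difference was 0.09 and the difference between the 2 age effects -0.47. The difference between the 2 age effects was -0.75 ± 0.36 on the log2 scale, and the interaction missed the test (limma, adjusted p = 1.00). It was -1.26 within replicate 1 and -0.24 within replicate 2. Groups of 2 samples are too small for a test of single outlying arrays.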

How the results depend on the processing

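The count of genes past the test was 0 for TG against WT at 12 months (5 with the replicate block, 0 to 7 with 1 array left out, 7 without the replicate 2 TG sample of 12 months) and 0 at 2 months (0 to 2, 2 without the replicate 2 WT sample of 2 months). For 12 against 2 months it was 0 in WT mice (0 to 4, 4 without the replicate 2 WT sample of 2 months) and 1 in TG mice (21 with the replicate block, 0 with a pseudocount of 1, 0 to 4 with 1 array left out). In the last it was 4 without the replicate 2 and 2 without the replicate 1 TG sample of 12 months, and 0 without any of the other 6. The cause was not tested. Of 760 values of the synthesis genes under alternatives, 715 kept the sign of the reported value and 2 passed the test: Alox5ap for 12 against 2 months in TG mice with the replicate block, and Ptgis at 12 months without the replicate 2 TG sample. Values within 1 replicate or of the next brightest probe set are among the 760 and carry no test. Of the 760, 71 moved by 1 SD or more. With all 8 arrays the block changed no call of a synthesis gene but that of Alox5ap. Ptgis at 12 months was negative under all 18 alternatives (-2.27 to -1.19), Alox5ap under all 19 (-1.01 to -0.41), and Tbxas1 (-0.88 to -0.30) and Alox5 (-0.91 to -0.22) under all 18 each. Lta4h at 12 months was -0.97 with its next brightest probe set and -0.41 with the mean of its probe sets. Added after the data were seen, the block with 1 array left out gave Ptgis at 12 months -2.24 to -1.39 (adjusted p = 0.0046 to 0.229, past the test in 2 of 8 fits) and Alox5ap -0.84 to -0.58 (0.0196 to 0.305, 1 of 8). For 12 against 2 months in TG mice it gave Ptgis -1.99 to -1.14 (0.00753 to 0.461, 1 of 8) and Alox5ap -1.13 to -0.86 (0.00949 to 0.372, 2 of 8). All of these passing fits lack 1 TG sample of 12 months, so the remaining one is assumed to vary like the other groups. The stricter filter left out the dimmer synthesis genes.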

Other observations

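Leukotriene receptors gave little signal in these spleens. Of the 6 receptor genes listed, 5 had a probe set with a single symbol and 0 reached the filter, and their summed signal reached at most 121 on any of the 8 arrays. The leukotriene B4 receptor gene Ltb4r1 had 8.39 and 34.0 in WT and 36.2 and 44.8 in TG mice at 2 months, and 20.9 and 24.9 in WT and 5.66 and 17.5 in TG mice at 12 months. Among prostanoid receptors, Ptger4, which binds prostaglandin E2, had 675 and 609 in TG and 585 and 509.8 in WT mice of 12 months. Its log2 difference was 0.22 ± 0.20 (limma adjusted p = 0.859).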
